A study of Mus musculus with 15 samples.

Results

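Cysteine is the rarest residue of the CDR3, the hypervariable loop of the T cell receptor (TCR), and the loops described here are all CDR3 peptides of the TCR alpha chain that hold at least 1 cysteine. They were taken by a search for the letter C in each of 15 lists of CDR3 peptides with their read counts, which leave out the conserved cysteine before the loop and the residue after it. Of 92219 distinct loops, 1164 held a cysteine. The Naive libraries together listed 764 such loops of 73948, the MP (memory-phenotype) libraries 296 of 25439, and the Tumour libraries 166 of 6146.

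All mice were C57BL/6 males that carry a transgenic TCR beta chain (genotype TCRbtg), so every cell shares that beta chain and differs from others in its alpha chain. Naive cells (CD8b+ CD4neg CD44lo CD122neg) and MP cells (CD8b+ CD4neg CD44hi CD122+) were sorted from spleen and lymph nodes, pooled together, of TCRbtg mice aged 9 weeks. Tumour cells (CD8b+ CD4neg, with no gate on CD44 or CD122) were sorted from the prostates of TCRbtg TRAMP+/- mice aged 27 weeks. TRAMP mice carry an oncogene driven by a prostate promoter. Each group held 5 libraries, and the design text speaks of different mice within a group. Tissue, age, genotype and gate differ together between the Tumour libraries and the others, and their parts cannot be told apart. The files hold peptides only, so the labelled cell types could not be set against marker genes.

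The alpha chain loop is made where a V segment joins a J segment, and its middle carries residues that neither segment encodes whole. Cysteine is uncommon in such loops. Published work on mouse TCRs has linked a cysteine near the apex of the CDR3 to strong recognition of self ligands in the thymus, and to cells that leave the conventional CD8+ lineage. The J segment sets the end of the loop: by general knowledge of these segments, NNNNAPR belongs to Traj43, YNQGKLI to Traj23, TNAYKVI to Traj30 and TNTGKLT to Traj27.

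The following loops show the forms that the results turn on. Those of Naive cells have a cysteine at the second or the third residue, and those of MP cells at the second or the fourth. Those of tumours include a cysteine just before threonine-asparagine, and a pair that differs in 1 residue. Positions are counted from 1 at the first listed residue.
Naive, cysteine at 3: AICNNNNAPR
Naive, cysteine at 3: AFCNNNNAPR
Naive, cysteine at 3: ALCYNQGKLI
Naive, cysteine at 2: ACPSSNTNKVV
MP, cysteine at 2: ACAGNKLT
MP, cysteine at 2: ACTGSNRLT
MP, cysteine at 4: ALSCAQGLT
MP, cysteine at 4: APTCTEGADRLT
Tumour, cysteine at 4: AASCTNAYKVI
Tumour, cysteine at 5: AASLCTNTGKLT
Tumour, cysteine at 3: AACSSGSWQLI
Tumour, abundant loop without cysteine: AARPPRYGNEKIT
Tumour, the same loop with Y7C: AARPPRCGNEKIT

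The libraries held between 547665 and 943699 reads. They listed 14914 to 29559 distinct loops in Naive cells and 934 to 2657 in tumours. The MP libraries split: MP 1 and MP 5 listed 12401 and 13950 distinct loops, and the other three 2216 to 3392. The lowest listed count was 2 reads, so an unlisted loop had fewer than 2 unless some unstated filter took it out. Reads were made by PCR without stated molecular identifiers, so reads are not independent molecules. The share of a loop rises with the number of cells and with their RNA per cell, and fewer cells and less RNA per cell cannot be told apart.

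Cysteine loops took a small share of the reads in every library, and a smaller one in MP than in Naive cells. The share of reads was 0.540%, 0.572%, 0.509%, 0.439% and 0.481% in Naive 1 to 5, a mean of 0.508% ± 0.0517 (SD, n = 5). It was 0.234%, 0.251%, 0.345%, 0.292% and 0.249% in MP 1 to 5, with a mean of 0.274% ± 0.0449 (SD, n = 5). Every MP library lay below every Naive library. The tumours held 0.550%, 0.872%, 0.574%, 0.197% and 1.15%, with a mean of 0.668% ± 0.359 (SD, n = 5), and their range took in both other groups. By reads and by distinct loops, cysteine was last of 20 residues in the mean of each group. The next rarest by reads was histidine, present in loops with 3.42%, 3.20% and 3.54% of the reads of Naive, MP and Tumour libraries.

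Counted as distinct loops, the order of the groups was another. A cysteine was in 0.905% ± 0.0438 of the distinct loops of Naive libraries, 1.13% ± 0.204 in MP and 2.74% ± 0.970 in Tumour libraries (SD, n = 5 each). No pair of groups overlapped: Naive libraries spanned 0.845 to 0.966%, MP 0.988 to 1.47% and tumours 1.56 to 4.18%. Thus MP cells had more distinct cysteine loops per 100 loops than Naive cells, and fewer of their reads in them. The gap between MP and Naive narrowed when loops close to a far more abundant one, described further on, were left out. Without such loops the shares were 0.799% ± 0.0499 in Naive libraries, 0.833% ± 0.118 in MP libraries and 1.63% ± 0.815 in tumours (SD, n = 5 each). MP then overlapped Naive. MP 1, 2 and 5, at 0.912%, 0.925% and 0.899%, still lay above every Naive library, of which the highest held 0.846%. MP 3 and MP 4, at 0.650% and 0.778%, did not. Among loops of at least 10 reads the order of the 2 means turned, with 0.891% ± 0.0833 in Naive and 0.798% ± 0.139 in MP libraries (SD, n = 5 each), and the ranges overlapped. Without the loops close to an abundant one, the lowest tumour, at 0.938%, stayed above the highest MP library at 0.925%. Among loops of at least 10 reads, the tumours spanned 0.959 to 2.89%. They then overlapped the Naive libraries, which reached 1.02%, and stayed above the MP libraries, which reached 0.937%. Each tumour held only 6 to 22 cysteine loops of at least 10 reads.

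**Figure D1:**
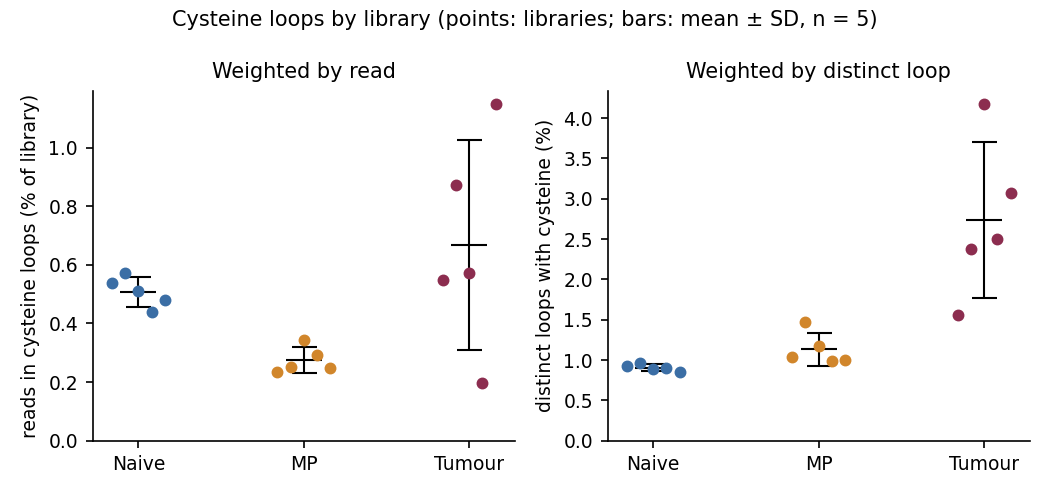
Cysteine loops in each of the 15 libraries, as a share of the reads (left) and of the distinct loops (right), in percent. Points are libraries and bars the mean and SD of 5; MP lies below Naive by reads (0.274% against 0.508%) and above it by distinct loops (1.13% against 0.905%).

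By rank number, the first cysteine loop stood nearer the top in every tumour than in any Naive library, and MP overlapped both. The best rank of a cysteine loop was 239, 242, 262, 309 and 238 in Naive 1 to 5, where rank 1 is the most abundant loop. In MP 1 to 5 it was 714, 191, 129, 310 and 505. In Tumour 1 to 5 it was 25, 77, 76, 136 and 41. No Naive or MP library had a cysteine loop among its 100 most abundant loops, and the tumours had 1, 2, 1, 0 and 3. Tumours list fewer distinct loops, so a given rank lies at a higher share of the list there. Set against the length of the list, the order turned, and the first cysteine loop stood lower in every tumour than in any Naive library. The nearest were rank 25 of 1479 in Tumour 1 and rank 242 of 14914 in Naive 2. By share of reads, the most abundant cysteine loop held 0.0465 to 0.0625% of a Naive library, 0.0118 to 0.139% of an MP library and 0.0935 to 0.476% of a tumour. Every tumour lay above every Naive library by this measure, and MP overlapped both.

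The reads were spread over many cysteine loops in Naive cells and gathered in few in tumours. The first cysteine loop held 11.2% ± 1.12 of all cysteine reads in Naive libraries, 20.7% ± 16.4 in MP and 47.5% ± 19.4 in tumours (SD, n = 5 each). Reads were gathered over loops of all kinds too. The most abundant loop of any kind held 14.5%, 4.19% and 22.6% of all reads in Tumour 2, 3 and 5. It held 2.32%, 2.37% and 1.86% in Naive 1, 3 and 5, and 4.90% in MP 1. These are the libraries where that loop had a listed cysteine form. The median cysteine loop was rare in every group, with 4 to 10 reads in Naive libraries, 4.5 to 8 in MP libraries and 3 to 5 in tumours. Over all loops of a library, the median ran from 4 to 9 reads in Naive libraries, 7 to 38 in MP libraries and 7 to 21 in tumours.

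**Figure D2:**
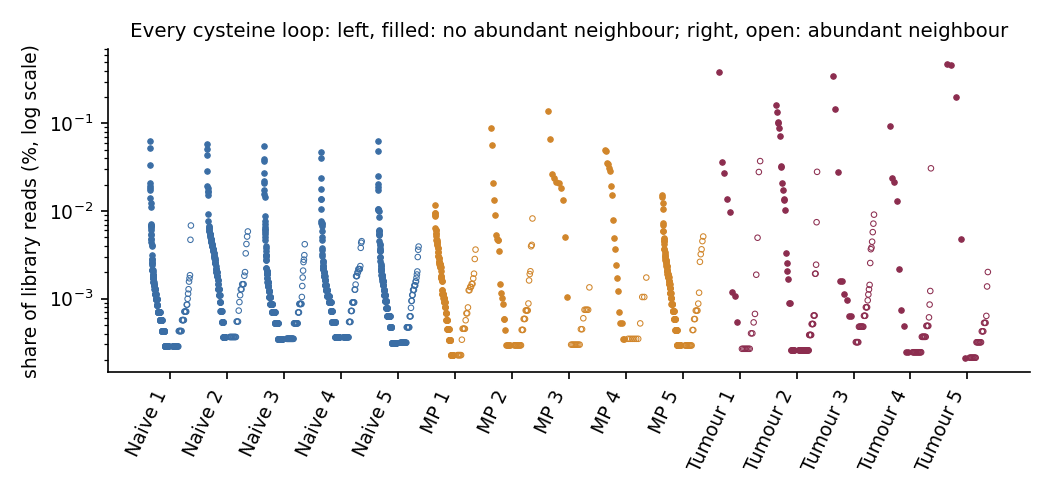
Every cysteine loop of each of the 15 libraries by its share of the library's reads (percent, log scale). Filled points on the left of each library have no neighbour at least 100 times as abundant, open points on the right have one; the highest points of the tumours, up to 0.476%, are filled.

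By group mean, the cysteine lay near the start of the loop most often in Naive cells, less often in MP cells and least often in tumours. In Naive libraries, loops with their first cysteine at residue 2 or 3 held 93.3% ± 1.55 of the cysteine reads (SD, n = 5), with 34.3% at residue 2 and 59.0% at residue 3. In MP libraries these loops held 63.4% ± 12.0, and in tumours 19.8% ± 25.5, from 0.277% in Tumour 5 to 62.1% in Tumour 3 (SD, n = 5 each). The Naive range (91.1 to 94.8%) overlapped neither other group, while MP (48.1 to 80.3%) overlapped the tumours. Loops with the cysteine at residues 4 to 7 took 6.17% ± 1.58 of cysteine reads in Naive libraries, 35.3% ± 11.8 in MP libraries and 80.0% ± 25.8 in tumours (SD, n = 5 each).

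Each distinct loop counted once gave the same order. A first cysteine at residue 2 or 3 was found in 77.5% ± 3.96 of cysteine loops in Naive libraries, 52.2% ± 15.8 in MP libraries and 31.3% ± 5.16 in tumours (SD, n = 5 each). Of all residues of all distinct loops, 17.2%, 18.2% and 17.5% stand at these positions. At residue 2 alone, the share was 31.8% in Naive libraries, 24.5% in MP libraries and 3.53% in tumours. The middle of the loop, here the residues within 1 position of its centre, held the cysteine in 6.29% ± 1.48 of Naive, 23.3% ± 15.6 of MP and 28.0% ± 11.4 of Tumour cysteine loops (SD, n = 5 each), where 21.5%, 22.6% and 22.6% of all residues stand. By reads the order was another: such loops held 9.46% ± 4.59 of the cysteine reads of MP libraries, above the 5.71% ± 7.11 of tumours and the 1.81% ± 0.731 of Naive libraries (SD, n = 5 each). By distinct loops the Naive libraries, at 4.15 to 7.64%, lay below every other library. Cysteine was thus rarer in the middle than residues at large in Naive loops, and by this count MP and Tumour loops spanned the share of residues at large. Among loops without an abundant neighbour, the middle share was 4.98% ± 1.28 in Naive libraries, 12.9% ± 10.7 in MP libraries and 21.4% ± 14.3 in tumours (SD, n = 5 each), with only 5 to 25 such loops in a tumour and 10 in MP 3.

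**Figure D3:**
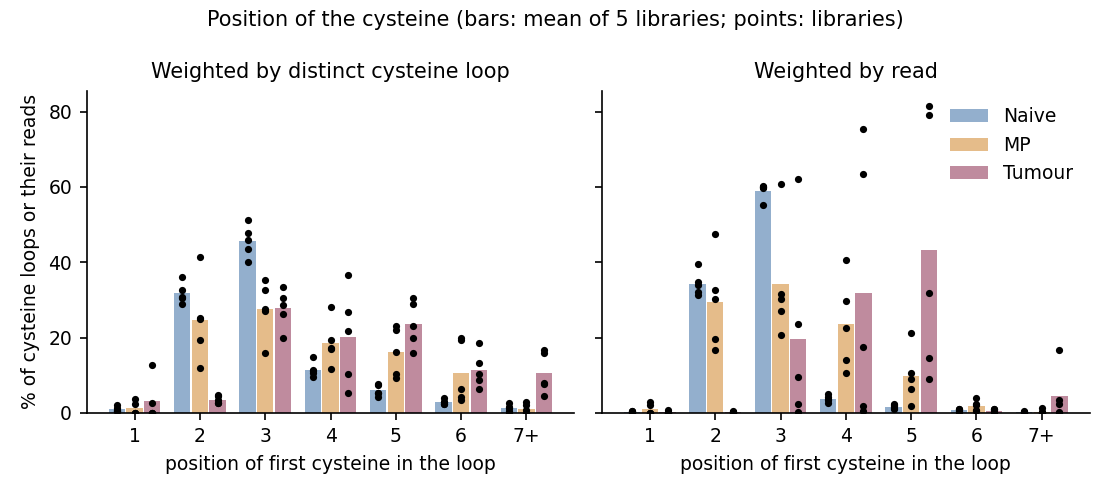
Position of the first cysteine, from residue 1 to residue 7 or later, as a percent of distinct cysteine loops (left) and of their reads (right). Bars are the mean of 5 libraries and points the libraries; Naive reads stand at residues 2 and 3 (93.3%), tumour reads mostly at residues 4 to 7 (80.0%).

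The residue after the cysteine and the end of the loop differed between the groups. In Naive cells asparagine followed the cysteine in 39.7% of cysteine reads, and tyrosine in 15.9%. Loops ending in NAPR held 29.0% ± 1.79 of the cysteine reads of Naive libraries and 7.55% ± 0.375 of all their reads (SD, n = 5 each). Loops ending in GKLI held 19.1% of cysteine reads and 19.3% of all reads there, so this end was as common with cysteine as without. In MP libraries the leading end was QGLT, with 14.1% ± 3.96 of cysteine reads against 6.69% ± 0.890 of all reads (SD, n = 5 each). In tumours threonine followed the cysteine in 60.1% ± 29.8 of cysteine reads, and loops ending in GKLT held 35.7% ± 36.6 of them against 3.69% ± 2.12 of all reads (SD, n = 5 each), with a wide spread between tumours.

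A recurrent Naive form was an alanine, any residue, a cysteine and then NNNNAPR. This form was singled out after its values were seen. It took 23.3%, 21.9%, 20.0%, 22.5% and 23.3% of the cysteine reads of Naive 1 to 5, through 9 to 12 loops in each library and 14 loops in all. MP 5 listed 1 such loop with 3 reads, and no other MP library and no tumour listed any. Among all loops of the form alanine, any 2 residues and NNNNAPR, cysteine at the third residue held 4.08 to 5.54% of the reads of Naive libraries. Leucine was first at that site in Naive cells, with 35.4 to 41.5%.

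AICNNNNAPR had 439, 237, 224, 257 and 396 reads in Naive 1 to 5 and was listed in no MP library and no tumour. Its mean share of Naive reads was 0.0507% ± 0.0110 (SD, n = 5), at least 116-fold higher than in MP (edgeR adjusted p = 0.000662) and at least 130-fold higher than in tumours (edgeR adjusted p = 1.27e-05). Bounds of this kind set an unlisted loop at 3 reads per library. ALCYNQGKLI had 370, 315, 317, 225 and 309 reads in Naive 1 to 5, and among the other libraries 18 reads in MP 5 alone. Its mean share was 0.0509% ± 0.00660 in Naive and 0.000526% ± 0.00118 in MP cells (SD, n = 5 each, edgeR adjusted p = 0.0109). Both loops were within a narrow range over the Naive libraries and nearly or wholly unlisted elsewhere.

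The other leading Naive loops had the same pattern. AFCNNNNAPR had 133 to 277 reads per Naive library, ACPSSNTNKVV 75 to 156, AFCYNQGKLI 59 to 146 and ACNTGNYKYV 50 to 123, and none of these 4 was listed in an MP library or a tumour. Their Naive shares were at least 78.2, 46.3, 33.9 and 31.0-fold higher than in MP, each with an edgeR adjusted p of 0.000662. ACNNNNAPR differed: it had 99 to 126 reads in each Naive library, and also 83 reads in MP 1 and 50 in MP 5. Its Naive and MP shares, 0.0184% ± 0.00283 and 0.00334% ± 0.00464 (SD, n = 5 each), were not called different (edgeR adjusted p = 0.222). Without MP 1 and MP 5 it was called higher in Naive cells (edgeR adjusted p = 0.000152).

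Over all loops tested in MP against Naive, 48.1% were called lower in MP and 12.6% higher, by edgeR with an adjusted p under 0.05 over 5954 loops. Of 43 cysteine loops tested, 24 were lower in MP and 7 higher, which is 55.8% and 16.3%. These shares were close to those of all loops. The filter asks for 10 reads in at least 3 libraries, so a cysteine loop found mainly in 1 group had to be frequent there to be tested. The 43 tested are a small part of the 1164. The median log2 fold change of MP over Naive was -6.38 over the 43 loops and -3.35 over all loops tested. All 24 loops that were lower in MP had their first cysteine at residue 2 or 3, but so had all of the 43 tested except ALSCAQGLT. Of the 24, 7 ended in NNNNAPR, and ACNNNNAPR was the only other tested loop with that end. Of the 24, 21 were listed in all 5 Naive libraries, and 21, not all of them the same, were listed in no MP library.

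The 7 loops higher in MP had 8 to 10 residues, and 6 of them had the cysteine at residue 2. The 24 lower in MP had 8 to 11 residues, and 9 of them had it at residue 2. Over all cysteine loops, residue 2 held 29.3% of the cysteine reads of MP libraries and 34.3% of those of Naive libraries, so it was no mark of MP cells. ACAGNKLT had 30, 32, 5, 7 and 40 reads in MP 1 to 5 and was listed in no Naive library, a share at least 6.33-fold higher in MP (edgeR adjusted p = 0.00192). ACTGSNRLT had 10, 10, 34, 10 and 13 reads in MP 1 to 5 and none listed in Naive cells, at least 4.51-fold higher (edgeR adjusted p = 0.00146). These were the only 2 of the 7 that all MP libraries listed. ACNNNAPR, which is ACNNNNAPR with 1 asparagine fewer, had 23, 179, 88 and 22 reads in MP 1, 3, 4 and 5 and was listed in no Naive library, at least 19.1-fold higher (edgeR adjusted p = 0.0134). The 9-residue form was listed in all 5 Naive and 2 MP libraries and was not called, and the 8-residue form was listed in 4 MP libraries only.

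The other MP calls rested on fewer libraries. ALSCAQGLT had 104 reads in MP 1 and 103 in MP 5, but 4 in MP 2 and 10 in MP 4 (at least 11.6-fold higher than in Naive cells, edgeR adjusted p = 0.0180). ACYAQGLT had 84, 45 and 72 reads in MP 1, 4 and 5 (at least 11.1-fold, edgeR adjusted p = 0.0278). ACSGSWQLI had 12, 27 and 31 reads in MP 1, 2 and 5 (at least 3.92-fold, edgeR adjusted p = 0.0324), and the call was lost when any Naive library was left out (adjusted p from 0.0522 to 0.0542). In each of these MP libraries ACSGSWQLI was next to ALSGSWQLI (L2C), which was 473, 169 and 127 times as abundant. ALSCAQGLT had such a neighbour, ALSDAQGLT (D4C), in MP 2 and MP 4, and ACAGNKLT had ALAGNKLT (L2C) in MP 3. ACNYNQGKLI had 158 reads in MP 3, 14 to 26 in 3 other MP libraries, and 4 and 3 reads in 2 Naive libraries (edgeR adjusted p = 0.0399). Leaving out MP 3 ended this call (adjusted p = 0.120), as did leaving out any 1 Naive library (adjusted p from 0.0505 to 0.0845). Without MP 1, or without MP 5, 3 loops were higher in MP. Without both, the number fell from 7 to 1, of 32 tested, and 27 were lower.

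The most abundant MP cysteine loops were each a matter of 1 library. APTCTEGADRLT had 929 reads in MP 3, 4 in MP 5 and none listed elsewhere. ALCMGYQNFY had 606 reads and APCLSSGSWQLI 383 reads, both in MP 2 alone. AACMTTASLGKLQ, with 53, 199 and 29 reads in MP 1, 4 and 5 and 7 reads in Naive 2, was not called against Naive cells (edgeR adjusted p = 0.0741). ALCNYAQGLT had 19 to 50 reads in each Naive library, 5 reads in MP 1 and 448 in MP 3, and was not called either (edgeR adjusted p = 0.597).

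In tumours many of the abundant cysteine loops, though not all, shared a frame: alanine-alanine-serine, at most 1 further residue, the cysteine, threonine-asparagine and then AYKVI or TGKLT. The frame was chosen after these values were seen. Loops of this form took 74.8%, 18.9%, 30.2%, 66.2% and 98.6% of the cysteine reads of Tumour 1 to 5. In MP 1 to 5 they took 8.81%, 0%, 6.11%, 0% and 1.23%, and in Naive cells 1 loop with 2 reads in Naive 4. Every tumour lay above every other library. The tumours held 9 distinct cysteine loops of this frame, MP cells 6 and Naive cells 1, with 13 different ones in all.

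The loops were not the same from tumour to tumour. AASCTNAYKVI had 2867 reads in Tumour 1, 790 in Tumour 2, 1863 in Tumour 5 and 4 in MP 1. The loop with alanine before the cysteine and the end TGKLT (below the alanine-TGKLT loop) had 136 reads in Tumour 2, 765 in Tumour 4, 4496 in Tumour 5 and 2 in Naive 4. The loop with alanine before the cysteine and the end AYKVI (the alanine-AYKVI loop) had 204, 254 and 173 reads in Tumour 1, 2 and 3, 80 in MP 1 and 9 in MP 5. The TGKLT loop with serine before the cysteine, with 4322 reads, was listed in Tumour 5 alone, and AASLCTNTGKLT, with 911 reads, in Tumour 3 alone. Each tumour listed 2 to 4 cysteine loops of the frame, and none of these loops stood in more than 3 tumours. The first cysteine loops of Tumour 2 and Tumour 3 lay outside the frame. AASCSNTNKVV, first in Tumour 2, had 1275 reads there, 208 in Tumour 1, 202 in MP 4 and 2 in Naive 1, and in Tumour 1 it was next to AASASNTNKVV (A4C), 130 times as abundant. It was not called against MP (edgeR adjusted p = 0.464). AACSSGSWQLI, first in Tumour 3, is described further on.

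The frame itself was more abundant in tumours, whichever residue stood at the cysteine's site, which is the eighth residue from the end. Loops of the frame with any residue there held 5.27 to 6.43% of tumour reads, 0.925 to 1.27% of MP reads and 1.32 to 1.70% of Naive reads, without overlap between tumours and the others. Within the frame, cysteine held 6.40%, 3.07%, 2.96%, 2.47% and 19.5% of the reads of Tumour 1 to 5. In MP cells it held 0 to 2.28% and in Naive cells 0 to 0.0236%. The residue that led the site in Naive cells was aspartate, with 47.7% ± 3.63 of the frame's reads, and in MP cells alanine, with 59.2% ± 6.21 (SD, n = 5 each). In tumours alanine held 41.2% ± 13.2 and serine 33.7% ± 17.6 (SD, n = 5 each). Threonine-asparagine preceded by a small residue was thus the common form in MP cells and tumours, and preceded by an acidic one in Naive cells.

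**Figure D4:**
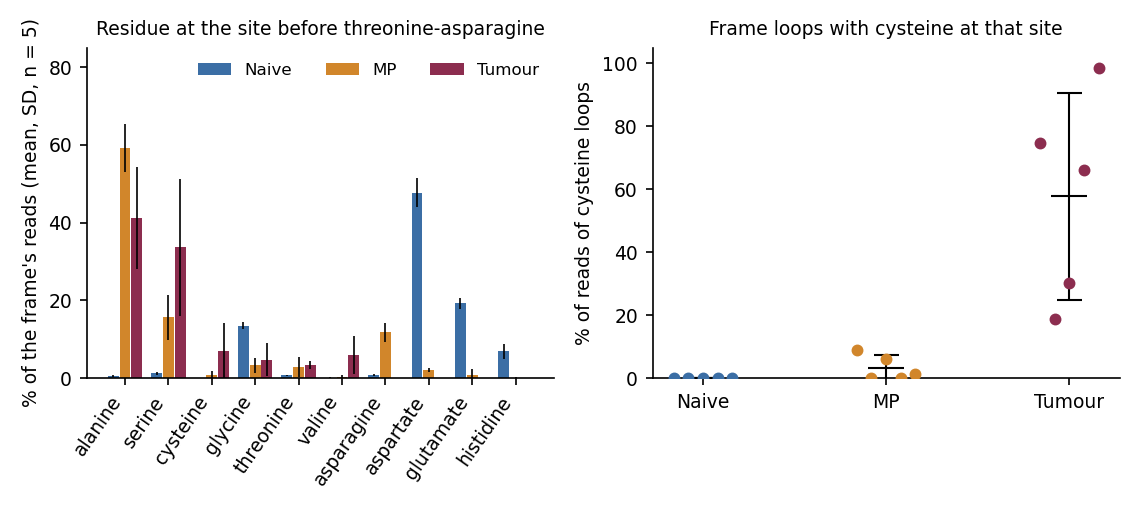
Left: the residue at the site before threonine-asparagine, as a percent of the reads of the frame in each group (bars mean, lines SD, n = 5); aspartate leads in Naive cells (47.7%), alanine in MP cells (59.2%) and tumours (41.2%). Right: the share of each library's cysteine reads in frame loops with cysteine at that site (points libraries, bars mean and SD, n = 5), 18.9 to 98.6% in tumours and at most 8.81% elsewhere.

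Loops that differ from these only at the cysteine's site were also listed, some with more reads and some with fewer. In Tumour 1, AASCTNAYKVI (2867 reads) stood beside AASATNAYKVI with 10341 reads and AASSTNAYKVI with 2426. AASATNAYKVI was 22.9 times as abundant as AASCTNAYKVI in Tumour 2 (18128 against 790 reads) and 10.5 times in Tumour 5 (19592 against 1863). In Tumour 3, the alanine-AYKVI loop had 173 reads and its form with serine in place of the cysteine 3439, a ratio of 19.9. In Tumour 5, the alanine-TGKLT loop (4496 reads) was more abundant than the same loop with serine in place of the cysteine (3537 reads) or with threonine there (1516). None of the 5 most abundant tumour loops of the frame had a neighbour at least 100 times as abundant in a tumour. In MP 1, the 4 reads of AASCTNAYKVI did have one, AASATNAYKVI with 2802 reads (A4C).

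Against MP, 7.68% of 1666 loops tested were called higher in tumours by edgeR with an adjusted p under 0.05, and 66.0% lower. Of 14 cysteine loops tested, 4 were higher and 7 lower. Against Naive, 3.38% of 4671 loops were higher in tumours and 86.7% lower, and of 36 cysteine loops tested 5 were higher and 31 lower (13.9% and 86.1%). The higher calls against MP were 28.6% of the cysteine loops tested. Of these 4, 3 were listed in no MP library, and the 7 lower ones were listed in no tumour. All of them had passed the filter through the group where they were higher, so these counts describe what was tested. Against Naive the share of lower calls was close to that of all loops. The comparisons share libraries and are not independent of each other. The median log2 fold change of the cysteine loops was -5.22 against MP and -7.76 against Naive, beside -7.57 and -7.42 over all loops tested.

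AASCTNAYKVI held 0.137% ± 0.161 of tumour reads (SD, n = 5). It was higher than in MP, where the mean was 9.07e-05% ± 0.000203 (SD, n = 5, edgeR adjusted p = 0.0170), and at least 272-fold higher than in Naive cells (edgeR adjusted p = 0.0158). The alanine-TGKLT loop held 0.117% ± 0.204 (SD, n = 5). Its tumour share lay at least 268-fold above MP (edgeR adjusted p = 0.0183), and was also called against Naive cells (edgeR adjusted p = 0.00752). The alanine-AYKVI loop, at 0.0175% ± 0.0161 (SD, n = 5), was at least 34.9-fold higher than in Naive cells (edgeR adjusted p = 0.0175), and was not called against MP (edgeR adjusted p = 0.276). AACSSGSWQLI, at 0.0776% ± 0.149 (SD, n = 5), had 277, 58 and 2155 reads in Tumour 1, 2 and 3 and was listed in no Naive or MP library. Its share lay at least 177-fold above MP and at least 155-fold above Naive cells (edgeR adjusted p = 0.0183 and 0.0221). Each of these loops was unlisted in 2 of the 5 tumours, and the SD exceeded the mean for all but the alanine-AYKVI loop.

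The tumour calls leaned on single libraries. Without Tumour 2, edgeR called 0 cysteine loops higher against MP (of 9 tested, 0 at an unadjusted p under 0.05) and 0 against Naive (of 31 tested, 0 at an unadjusted p under 0.05), since loops found in 3 tumours then fell under the filter. DESeq2 was not run without Tumour 2, and with all libraries it called 4 and 5, as edgeR did. Without Tumour 1 or Tumour 3, 2 were called in each comparison. Without Tumour 4 or Tumour 5, 2 were called against MP and 3 against Naive. Without MP 1 and MP 5 together, 0 of 8 were higher than in MP by edgeR, with 4 at an unadjusted p under 0.05.

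The 7 loops lower in tumours than in MP were the MP loops ACAGNKLT, ACTGSNRLT, ACNNNAPR, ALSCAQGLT, ACYAQGLT and ACSGSWQLI, with AACMTTASLGKLQ. No tumour listed any of them, and edgeR adjusted p-values ran from 0.0107 to 0.0183. Without MP 1 and MP 5, 1 of 8 tested was lower, and without MP 1 or without MP 5 alone 2 of 9 were. Without MP 4, 4 of 10 were. The 31 loops lower in tumours than in Naive cells were listed in no tumour. They had passed the filter through Naive libraries alone, and every one of the 36 tested was called in 1 direction or the other, so these counts describe what was tested.

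A cysteine loop was often 1 residue away from a far more abundant loop, and more so in tumours. The neighbour of a loop is here a loop of the same length that differs in 1 residue and has at least 100 times its reads in the same library. Of the cysteine loops, 14.7%, 18.8%, 18.7%, 17.8% and 20.2% had such a neighbour in Naive 1 to 5. In MP 1 to 5 the shares were 19.4%, 56.0%, 61.5%, 34.5% and 16.5%, and in Tumour 1 to 5 65.2%, 60.3%, 76.9%, 76.3% and 83.3%. MP 1 and MP 5, which list the most loops, lay with the Naive libraries. Naive and Tumour libraries did not overlap, and MP 3 overlapped the tumours.

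Loops of all kinds had neighbours more often in the same libraries. Over all loops the share was 7.07% ± 0.0823 in Naive libraries, 18.5% ± 11.3 in MP libraries and 51.8% ± 17.2 in tumours, beside 18.0% ± 2.04, 37.6% ± 20.6 and 72.4% ± 9.39 for cysteine loops (SD, n = 5 each). Cysteine loops had the highest share among loops holding each of the 20 residues in the mean of every group. A loop of few reads meets the ratio of 100 more easily. The mean of the library medians was 6.1 reads for cysteine loops against 21.6 for all loops in MP libraries, and 3.8 against 12.8 in tumours. In Naive libraries it was 5.8 against 5.6. How far read count accounts for the higher shares was not tested. When only neighbours that differ at the residue itself were counted, 17.3%, 36.9% and 61.1% of cysteine loops had one in Naive, MP and Tumour libraries. The next highest were histidine loops in Naive and MP libraries, with 3.99% and 8.01%. In tumours they were proline loops with 20.6%, followed by histidine loops with 18.4%. Naive libraries held 78 cysteine entries with a ratio between 50 and 100 and 76 between 100 and 200, MP libraries 21 and 26, and tumours 5 and 18. The nearest ratios inside and outside were 100.4 and 97.6 in Naive, 108 and 97.3 in MP, and 109 and 99.0 in Tumour libraries.

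Such loops made up much of the list of cysteine loops and little of their reads. They held 8.12% ± 2.09 of the cysteine reads of Naive libraries, 7.81% ± 5.10 in MP and 10.1% ± 7.62 in tumours (SD, n = 5 each). Between Naive cells and tumours, the neighbours thus differed far more by distinct loops than by reads.

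The residue that the cysteine replaced differed between the groups. By the standard genetic code, the 2 codons of cysteine lie 1 base away from a codon of phenylalanine, glycine, arginine, serine, tryptophan or tyrosine, 6 residues, and from no codon of the 13 others. Where the neighbour differed at the cysteine, 1 of these 6 residues stood there in 85 of 189 cases in Naive cells, 78 of 101 in MP cells and 101 of 111 in tumours, all libraries of a group pooled. These are 45.0%, 77.2% and 91.0%. By library the share was 38.6 to 64.0% in Naive libraries, 60.0 to 93.8% in MP libraries and 78.6 to 100% in tumours, and the tumours did not overlap Naive cells. Tyrosine stood there in 36, 44 and 49 cases (43.6% and 44.1% in MP cells and tumours) and serine in 34, 16 and 37. Leucine, which is more than 1 base away, stood there in 34, 7 and 1. The files give peptides, so the base change behind any of these pairs was not read.

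**Figure D5:**
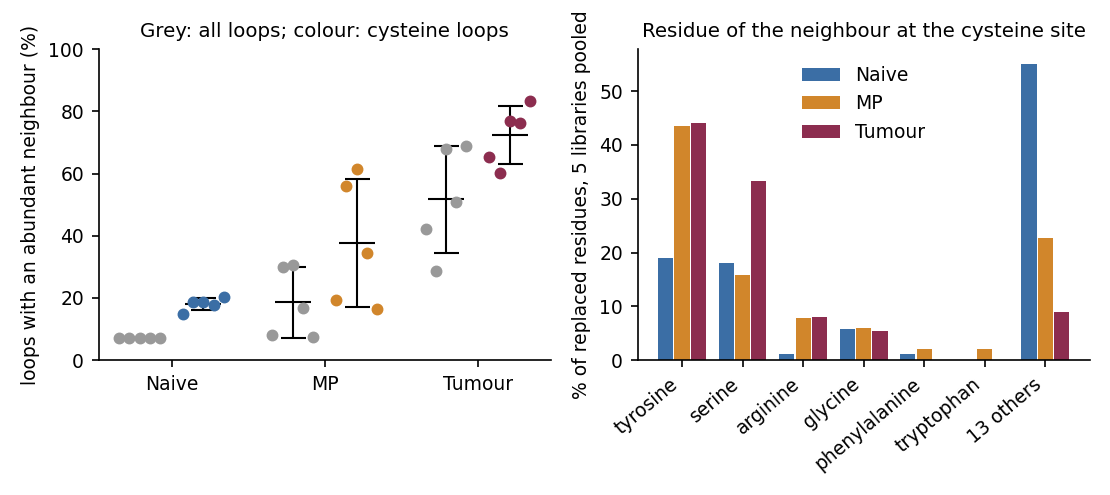
Left: share of loops with a neighbour at least 100 times as abundant, for all loops (grey) and cysteine loops (colour), points libraries and lines the mean and SD of 5. Right: the residue of the neighbour at the cysteine's site, as a percent of all replaced residues of a group; tyrosine leads in MP (43.6%) and tumours (44.1%), the 13 residues more than 1 base away lead in Naive cells.

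The sites were also counted from the side of the abundant loops. There were 32 loops of at least 5000 reads in Naive libraries, 106 in MP and 129 in tumours, counted once per library. A site counted only where the abundant loop had at least 100 times the reads of its cysteine form. More abundant cysteine forms were left out, such as AASCTNAYKVI beside AASATNAYKVI in Tumour 1, 2 and 5. The read medians below are limited in the same way. Among the tyrosines of these abundant loops, 4 of 28, 14 of 85 and 13 of 87 had such a listed loop with cysteine in that place, which is 14.3%, 16.5% and 14.9%. Among their serines, 4 of 31, 5 of 110 and 23 of 162 had one, which is 12.9%, 4.55% and 14.2%. Among residues more than 1 base away, 9 of 270, 7 of 814 and 11 of 1017 had one, which is 3.33%, 0.860% and 1.08%. The median read count of the tyrosine-to-cysteine loops was 413, 1116 and 1948 per 1000000 reads of the abundant loop, in Naive, MP and Tumour libraries. For serine these medians were 261, 375 and 225.

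The clearest pair was AARPPRYGNEKIT and its cysteine form AARPPRCGNEKIT (Y7C), which were listed together in 4 tumours. AARPPRCGNEKIT had 218 reads in Tumour 2 against 112786 of AARPPRYGNEKIT, 28 against 19094 in Tumour 3, 251 against 116195 in Tumour 4 and 4 against 1392 in Tumour 5. The abundant loop was 517, 682, 463 and 348 times as abundant. AARPPRCGNEKIT was listed in no Naive or MP library and was called higher in tumours, at least 29.0-fold over MP and at least 25.3-fold over Naive cells (edgeR adjusted p = 0.0173 and 0.0121). The call is thus one on a loop that stood with its neighbour in each tumour that listed it. AGRPPRCGNEKIT in Tumour 3, with 45 reads against 26279 of AGRPPRYGNEKIT, carried the same change (Y7C) at a ratio of 584.

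The most abundant loop of each library was searched for cysteine forms at any site. The first loop of Tumour 5, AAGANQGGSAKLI, had 213572 reads, 22.6% of the library, and AACANQGGSAKLI (G3C) had 13. The first loops of Tumour 1 and Tumour 4 had no listed cysteine form. The first loop of Naive 1, 3 and 5, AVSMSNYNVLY, had AVCMSNYNVLY (S3C) with 3, 2 and 4 reads. In Naive 5 it also had ACSMSNYNVLY (V2C) with 11 reads. The first loop of MP 1, with 43251 reads, had a form with cysteine at residue 2 (A2C) with 32 reads. Valine and alanine are more than 1 base away from cysteine. The first loops of Naive 2, Naive 4 and MP 2 to 5 had no listed cysteine form. AACASNTNKVV, chosen after its values were seen, was the only cysteine loop listed in all 5 tumours, with 24 reads in all and an abundant neighbour in each.

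Some abundant cysteine loops had rare neighbours of their own. In Tumour 2, 14 of the 38 cysteine loops with an abundant neighbour shared their cysteine with it, among them 5 forms of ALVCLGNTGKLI, which had 1055 reads. In Tumour 3, AACSSGSWQLI with 2155 reads had 4 such forms. AACSSGSWQLI was itself next to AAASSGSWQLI (A3C), which was 270 times as abundant in Tumour 1 and 1255 times in Tumour 2, while in Tumour 3 it had no neighbour past the ratio of 100.

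Most cysteine loops belonged to 1 library. Of the 1164, 925 (79.5%) were listed once, against 67.8% of all loops, and none stood in more than 7 of the 15 libraries. ACNNNNAPR, ALCNYAQGLT, ACTNAYKVI and ACNYNQGKLI each stood in 7. Of the Naive cysteine loops, 34 were in all 5 Naive libraries, which is 4.45% against 6.00% of all Naive loops. Of the MP cysteine loops, 5 were in all 5 MP libraries, which is 1.69% against 1.90% of all MP loops. The 50 cysteine loops found in both Naive and MP cells were 6.54% of the Naive and 16.9% of the MP cysteine loops, where 14.6% and 42.5% of all loops were shared. Tumours shared 9 cysteine loops with MP, 5.42% of theirs, and 7 with Naive cells, 4.22%. Over all loops these shares were 25.7% and 35.0%. Only 4 cysteine loops stood in all 3 groups, 0.344% of them, against 1.32% of all loops.

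A pair of small classes had forms that set them apart, and both were picked after their values were seen. Of 100 loops with at least 20 residues, 16 held a cysteine, and 15 of these ended in the same 12 residues, HCVTNSAGNKLT. These 15 loops had 32 to 39 residues and 2 to 8 reads, and stood in Naive 1, 3, 4 and 5 and MP 5. All contained the motif of phenylalanine or tryptophan, glycine, any residue, glycine and threonine, which lies within a J segment just past the usual end of the loop. The cysteine in them lies after that motif, and so outside a usual loop. The second class began with the cysteine. In Tumour 3, 5 such loops ended in TEGADRLT, with 4 to 10 reads each, and in Tumour 4 there was CARPVNTGNYKYV with 4. All 6 continued with alanine, and the same loop without the cysteine was listed with 18 to 244 reads. None of the 18 Naive or MP entries that began with cysteine continued with alanine.

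Loops with 2 cysteines were few. There were 6, each in 1 library, with the cysteines side by side in all 6. ACCGSSGSWQLI was the most abundant, with 282 reads in MP 4, where it was the first cysteine loop. The other 5 had 2 to 11 reads, among them ACCPSDTNAYKVI with 6 in Naive 3, and no tumour listed one.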

How the data were processed

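RNA of sorted cells was made into TCR alpha libraries by a company's multiplex RT-PCR and sequenced, per the labels' protocols. The sources used here do not name the aligner or the CDR3 caller. The authors deposited raw read counts per CDR3 peptide, without normalization, 1 list per library, and the counts were used as deposited.

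Members and lists were chosen with earlier results of these data known. Shares, ranks, positions and neighbours were computed with python 3.11.15 and given per library without a test. Calls came from edgeR 4.0.16 (R 4.3.3): quasi-likelihood tests on the 10 libraries of each comparison, total reads as library size without TMM, a filter of 10 reads reached in 3 or more libraries, and Benjamini-Hochberg adjustment over all loops tested. The scripts were tested on simulated data. Whether Naive and MP libraries of 1 number share a mouse is not stated in the labels. Their deviations correlated weakly (r at most 0.0470), and libraries were treated as unpaired. No pair of libraries of a group agreed within sampling noise. Alternatives were TMM, DESeq2 1.42.0, other filters, other neighbour ratios, a replicate block and each library left out.

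Named loops were all called cysteine loops of a comparison and direction, up to 10, otherwise the 5 with the highest share and the 5 with the largest fold. The 5 leading cysteine loops of each group and the first of each library were also named, as were cysteine forms of the most abundant tumour loops, the 5 loops in the most libraries and leading loops with 2 cysteines. Others are said to be chosen after their values were seen.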

Additional observations from a re-analysis of the deposited data

Results flagged for a closer look

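In 5 of 49 sets of 5 libraries checked, 1 library lay far from the other four, and chance alone gives about 1 in 20. In Naive 2, 64.0% of the residues replaced by cysteine were 1 base away, against 38.6 to 44.4% in the other Naive libraries. In the same library the median cysteine loop had 10.0 reads, against 4 to 5. Cysteine held 19.5% of the reads of the AAS frame in Tumour 5, against 2.47 to 6.40% in the other tumours. ACNYNQGKLI held 0.0236% of the reads of MP 3, against 0 to 0.00295% in the other MP libraries. ACTGSNRLT held 0.00508% of MP 3, against 0.00113 to 0.00190%.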

How the results depend on the processing

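Filters on low reads moved many values. With loops of at least 10 reads only, cysteine loops held 0.455% of Naive reads, and 0.891%, 0.798% and 1.54% of distinct Naive, MP and Tumour loops, which puts MP below Naive, and 13.4%, 13.7% and 37.5% of Naive, MP and Tumour cysteine loops had an abundant neighbour. The share of all loops with an abundant neighbour was not computed at this filter. Without loops that have a neighbour, the distinct shares were 0.799%, 0.833% and 1.63%. A neighbour ratio of 20 gave 38.3% in Naive cells, and a ratio of 1000 gave 2.25%, 7.62% and 25.9%. By read, the middle of the loop held the cysteine in 1.81% of Naive, 9.46% of MP and 5.71% of Tumour cysteine reads, which puts MP above the tumours.

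With at least 50 reads in 3 libraries, edgeR called 0 loops higher and 6 lower in MP against Naive (0 higher at an unadjusted p under 0.05), 0 lower in tumours against MP (0 at an unadjusted p under 0.05) and 9 lower against Naive. Without a filter (1 read in 2 libraries) the counts were 29 and 130 for MP against Naive, 8 and 43 for tumours against MP, and 11 and 160 against Naive. DESeq2 with the main filter gave the same counts as edgeR. The library number as a replicate block left 1 higher and 0 lower in tumours against MP (6 lower at an unadjusted p under 0.05). It moved no other count past 1.5 times. Tumours came from other mice than Naive and MP cells, by age and genotype, so a number shared with them marks no pair. For Naive and MP libraries it is not known whether a number marks 1 mouse: the same number was the best match for 4 of 5, with r from 0.0125 to 0.0470, all under 0.1. Without MP 1 and MP 5, 1 loop was higher in MP than in Naive cells, and against MP 0 were higher and 1 lower in tumours.

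With each library left out in turn, MP against Naive gave 3 to 7 loops higher and 19 to 27 lower, tumours against MP 0 to 4 and 2 to 8, and tumours against Naive 0 to 5 and 26 to 31. ALCNYAQGLT turned to lower in MP with the replicate block (log2 fold change -4.91) and without MP 3 (-4.99), and reached 1.62 without MP 5. Of the named calls, 11 of 13 for MP against Naive, 0 of 11 for tumours against MP and 13 of 13 for tumours against Naive held in every alternative that tested them. For the 7 loops lower in tumours than in MP, only the replicate block ended the call, and it matches no mice there. Without Tumour 2, none of the loops higher in tumours than in Naive cells passed the filter, so that run could not end their calls. Loops with fewer than 2 reads in a library could not be seen.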
